A study of Mus musculus with 32 samples.

Results

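The uteri of 12 wild-type mice given diethylstilbestrol (DES) were compared across 3 mouse lines, using 12 of the 32 arrays of the study. The arrays were chosen by their labels alone, with 4 uteri in each of 3 groups: Foxa2 WT, Foxo1 WT and Esr1 WT. The question was which genes had the same level in all 3 groups and which differed between them. All uteri came from female CD-1 mice at postnatal day 5, and total RNA of each was labelled with Cy3 and hybridised to its own array. In each line the study deletes the gene that names it in the uterus, as a conditional knockout (cKO), and the WT mice carry the wild-type genotype. The other arrays held 4 Foxa2 cKO, 4 Foxo1 cKO and 4 Esr1 cKO uteri after DES, and 4 Esr1 cKO and 4 Esr1 WT uteri after vehicle.

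The design leaves several things unseparated. The sources used here give no Cre driver, DES dose, litter, array slide or scan date, so line, litter and array batch cannot be told apart. The Foxa2 and Foxo1 lines have no vehicle arrays here, so a level after DES was measured in them but a response to DES was not. The 4 arrays of a group are biological replicates by the study's design text, and the number of arrays limits the precision of every value. A uterus is a mixture of cells, and fewer cells of a type and less RNA per cell cannot be told apart.

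DES is a synthetic estrogen that binds the estrogen receptor ESR1. The newborn uterus is a simple tube of epithelium surrounded by undifferentiated stroma, and its glands form after birth. DES given in this window activates estrogen target genes early and can redirect the epithelium towards other fates for life. FOXA2 is the forkhead transcription factor of uterine glands, and FOXO1 is a forkhead factor controlled by insulin and growth factor signalling.

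Levels are given as log2 intensity minus the array's own 75th percentile, so that 0 is the 75th percentile and 1 unit is a 2-fold step. Differences are on the same log2 scale, from limma's moderated test over 17145 genes with Benjamini-Hochberg adjustment, and a gene is called at an adjusted p under 0.05. A gene is described as within 2-fold when the 95% intervals of all 3 pairwise differences lie inside -1 and 1 and the gene was above the array's 30th percentile on all arrays of at least 1 of the groups. No probe's level is set against another's.

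One array stood furthest apart. On Foxa2 WT replicate 1 the 75th percentile of intensity was 9024, against 757 to 1505 on the other 11 arrays. It correlated with the rest of its group at a median r of 0.912, where the other 11 arrays had 0.979 to 0.991. The median SD of a gene was 0.587 in Foxa2 WT uteri, 0.139 in Foxo1 WT uteri and 0.195 in Esr1 WT uteri, and it was 0.233 in Foxa2 WT uteri without replicate 1. The main counts below are therefore given with and without that array. Foxa2 WT replicate 2 also parted somewhat from replicates 3 and 4. It correlated with them at r of 0.979 and 0.985, where replicates 3 and 4 had 0.991 with each other. Leaving out replicate 2 instead gave 5337 Foxa2 WT minus Foxo1 WT calls, against 2832 with all arrays. The lowest intensity on an array was 3.89 to 14.9 on replicates 1 and 2 of Foxa2 WT and Foxo1 WT uteri, 1.89 to 2.44 on their replicates 3 and 4, and 2.73 to 4.40 on Esr1 WT arrays. The labels name no such sets of arrays. The highest level an array held was 6.68 on Foxa2 WT replicate 1, against 8.12 to 9.24 on the other 11 arrays, so the brightest genes sit close to the top of that array and may be lower bounds there. Xist, which coats the silenced X chromosome of females, lay between 1.62 and 2.95 on all 12 arrays, which are labelled female. On vehicle Esr1 WT replicate 4 it was -2.35, against 3.56 to 4.02 on the other 3 vehicle arrays, and that array enters every DES minus vehicle value below. Without it, DES minus vehicle called 8693 genes, against 8876 with it.

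The 3 targeted genes were present in every wild-type group. Esr1, the estrogen receptor itself, had levels of 5.00, 2.02, 2.25 and 2.18 in Foxa2 WT uteri, 1.75, 1.68, 1.71 and 1.79 in Foxo1 WT uteri and 2.28, 2.12, 2.35 and 2.17 in Esr1 WT uteri. The value of 5.00 was on the array that stands apart, and the other 11 lay within 1 unit of one another. Esr1 was not called in any pair (F test adjusted p = 0.0598, and 0.118 without Foxa2 WT replicate 1, limma). Its Foxa2 WT minus Foxo1 WT difference of 1.13 (limma adjusted p = 0.053) was called in several other settings, among them quantile normalization, at 0.73 (limma adjusted p = 0.0352), and was 0.42 without Foxa2 WT replicate 1 (limma adjusted p = 0.293). Foxo1 averaged 4.01 ± 0.62 in Foxa2 WT uteri, 3.87 ± 0.17 in Foxo1 WT uteri and 3.55 ± 0.18 in Esr1 WT uteri (SD, n = 4 each), and was within 2-fold. Foxa2 had levels of 1.48, 3.58, 3.26 and 3.18 in Foxa2 WT uteri, 2.91, 2.58, 2.65 and 2.84 in Foxo1 WT uteri and 1.49, 2.27, 2.52 and 1.55 in Esr1 WT uteri. Its Foxa2 WT minus Esr1 WT difference was 0.92 (limma adjusted p = 0.076), and 1.38 without replicate 1 (limma adjusted p = 0.0042). The call depended on the setting: with all arrays it was made with 16 added before log2 (limma adjusted p = 0.0219) and with the mean of probes (limma adjusted p = 0.0433). It was also made with array weights, at 1.26 (limma adjusted p = 0.00101), and with a replicate block (limma adjusted p = 0.0493). Vehicle Esr1 WT uteri averaged -6.06 for Foxa2.

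A set of DES-responsive genes had levels within 2-fold in all 3 lines. In Esr1 WT uteri, DES was set against vehicle to mark genes that answer to it: 8876 of 17145 genes were called (51.8%), 2367 of them at least 2-fold higher (13.8%) and 2986 at least 2-fold lower (17.4%). Of the 2367 raised genes, 589 were within 2-fold between the 3 wild-type groups (24.9%), and 753 without Foxa2 WT replicate 1 (31.8%). Of the 2986 lowered genes, 579 were within 2-fold (19.4%), and 721 without that array (24.1%). Over all genes these shares were 36.2% (6205 genes) and 47.5% (8139 genes). The F test over the 3 groups called 1169 of the raised genes (49.4%) and 1633 of the lowered genes (54.7%), beside 49.1% of all genes. The Esr1 WT arrays chose these genes and also enter the comparison, so their own distance from vehicle is a description.

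Lactotransferrin, Ltf, a secreted iron-binding protein of the estrogen-stimulated uterine epithelium, was among them. Its promoter in RefSeq is shown because it holds the short estrogen response element half-site GGTCA, read on both strands and marked in capitals.
Ltf: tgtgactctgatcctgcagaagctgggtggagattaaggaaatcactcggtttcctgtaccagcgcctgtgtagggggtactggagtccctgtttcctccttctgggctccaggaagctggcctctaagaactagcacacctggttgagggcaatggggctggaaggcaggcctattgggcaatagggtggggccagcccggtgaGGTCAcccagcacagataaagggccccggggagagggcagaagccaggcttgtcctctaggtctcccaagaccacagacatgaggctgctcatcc
This window is chr9:111019042-111019341 on the plus strand of GRCm38.p6, from 250 bases before to 50 bases after the gene's start. Ltf had levels of 6.32, 7.21, 7.72 and 7.34 in Foxa2 WT uteri, 6.84, 7.09, 7.10 and 7.14 in Foxo1 WT uteri and 7.43, 7.30, 6.92 and 6.81 in Esr1 WT uteri, against -3.57, -3.04, -2.49 and -2.16 in vehicle Esr1 WT uteri. The 3 DES groups overlapped throughout, and all 12 arrays were far above the 4 vehicle arrays. The pairwise differences were 0.03 for Foxa2 WT minus Esr1 WT, -0.07 for Foxo1 WT minus Esr1 WT and 0.11 for Foxa2 WT minus Foxo1 WT, and their 95% intervals ran from -0.80 to 0.83. Without Foxa2 WT replicate 1, where the level of 6.32 was near the top of the array, Foxa2 WT minus Foxo1 WT was 0.38, and the intervals of Ltf no longer lay inside the 2-fold limits. DES minus vehicle in Esr1 WT uteri was 9.93 ± 0.35 (SE, limma adjusted p = 1.4e-18).

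Of the 10 genes within 2-fold that DES raised most, 5 stayed within 2-fold without Foxa2 WT replicate 1, and Ltf, Padi2, Ceacam2, Myot and Fbll1 did not. Of the 10 that DES lowered most, all 10 stayed. Of the 10 raised genes 6 had a RefSeq promoter. The half-site GGTCA was in 3 of these 6 promoters (50%), those of Ltf, Ckmt1 and Fbll1, and in 5891 of the 13751 promoters of measured genes (42.8%). The full palindromic element, GGTCA followed after any 3 bases by TGACC and so containing the half-site, was in 0 of the 6 and in 6 of 13751 (0.0436%). A match is only a description of these letters in this window.

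**Figure D1:**
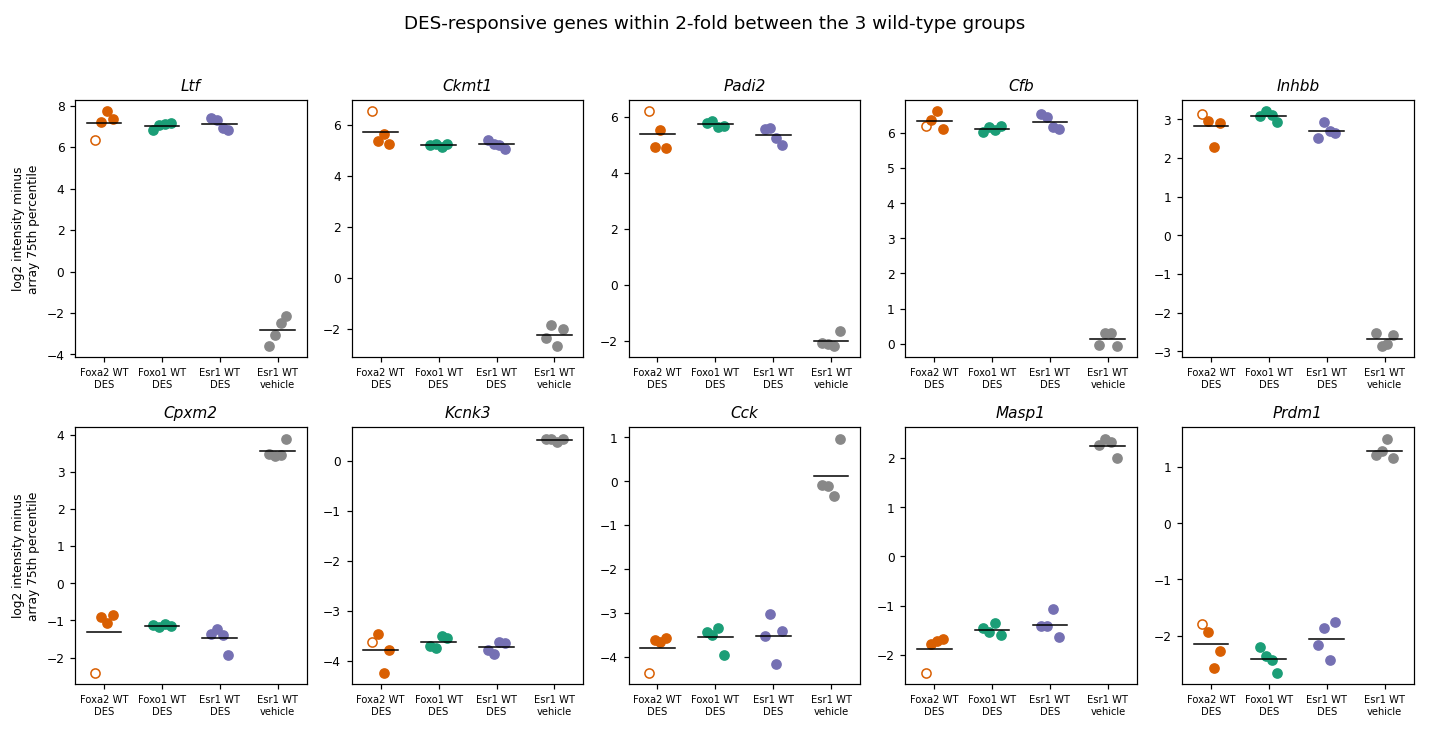
Level on each array (log2 intensity minus the array's 75th percentile) of 10 genes that DES changed in Esr1 WT uteri and that stayed within 2-fold between Foxa2 WT, Foxo1 WT and Esr1 WT uteri after DES; lines are means of 4 arrays and the open circle is Foxa2 WT replicate 1. In the upper row, Ltf to Inhbb, all 12 DES arrays lie above the vehicle Esr1 WT arrays, and in the lower row, Cpxm2 to Prdm1, all 12 lie below.

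Other secreted and metabolic genes were within 2-fold with all arrays in the fit. Cfb, complement factor B, had 6.21, 6.39, 6.62 and 6.12 in Foxa2 WT uteri, 6.03, 6.17, 6.10 and 6.19 in Foxo1 WT uteri and 6.54, 6.47, 6.17 and 6.12 in Esr1 WT uteri, against -0.05 to 0.31 in vehicle Esr1 WT uteri. Padi2, an enzyme that converts protein arginine to citrulline, had 6.18, 4.92, 5.52 and 4.88 in Foxa2 WT uteri, 5.77, 5.84, 5.64 and 5.67 in Foxo1 WT uteri and 5.57, 5.57, 5.24 and 4.98 in Esr1 WT uteri. Ckmt1, the mitochondrial creatine kinase, had 6.53, 5.38, 5.66 and 5.26 in Foxa2 WT uteri, 5.20, 5.26, 5.12 and 5.27 in Foxo1 WT uteri and 5.42, 5.26, 5.20 and 5.08 in Esr1 WT uteri. The 3 groups overlapped for Cfb and Ckmt1, while for Padi2 Foxo1 WT uteri lay just above Esr1 WT uteri and Foxa2 WT uteri spanned both. Cfb, Padi2 and Ckmt1 were also near the top of Foxa2 WT replicate 1, and without it Cfb and Ckmt1 were within 2-fold and Padi2 was not. DES minus vehicle in Esr1 WT uteri was 6.20 for Cfb, 7.33 for Padi2 and 7.45 for Ckmt1. Inhbb, a subunit of activin and inhibin B, lay between 2.27 and 3.20 on all 12 arrays and at -2.85 to -2.53 after vehicle, although the other of its 2 kept probes gave a Foxo1 WT minus Esr1 WT difference of 1.09. Sftpd, a surfactant protein that binds microbes, was also within 2-fold, with a DES minus vehicle difference of 6.43. Ceacam2, a cell adhesion molecule, shows that within 2-fold is not the same as equal: it was higher in Foxa2 WT than in Foxo1 WT uteri by 0.62 (limma adjusted p = 0.015), and its intervals still lay inside the 2-fold limits, which they did not without Foxa2 WT replicate 1.

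Some genes that DES lowered were within 2-fold between lines too. Kcnk3, a potassium channel, had -3.62, -3.46, -4.24 and -3.77 in Foxa2 WT uteri, -3.69, -3.74, -3.49 and -3.55 in Foxo1 WT uteri and -3.78, -3.86, -3.62 and -3.64 in Esr1 WT uteri, against 0.39 to 0.45 in vehicle Esr1 WT uteri. Cpxm2, a carboxypeptidase-like secreted protein, had -2.41, -0.90, -1.06 and -0.86 in Foxa2 WT uteri, -1.12, -1.19, -1.08 and -1.15 in Foxo1 WT uteri and -1.36, -1.24, -1.39 and -1.92 in Esr1 WT uteri, against 3.42 to 3.89 after vehicle. Prdm1, a transcriptional repressor, had -1.79, -1.94, -2.57 and -2.28 in Foxa2 WT uteri, -2.20, -2.36, -2.44 and -2.66 in Foxo1 WT uteri and -2.17, -1.87, -2.42 and -1.75 in Esr1 WT uteri. The 3 groups overlapped for Kcnk3 and Prdm1, while for Cpxm2 Foxo1 WT uteri lay just above Esr1 WT uteri, and every DES array was below every vehicle array. DES minus vehicle was -4.15 for Kcnk3, -5.04 for Cpxm2 and -3.35 for Prdm1. Cck, the peptide hormone cholecystokinin (-3.65), and Masp1, a protease of the lectin complement pathway (-3.62), were within 2-fold too, although the Foxa2 WT minus Esr1 WT difference of Masp1 was called at -0.51 (limma adjusted p = 0.044), and not without Foxa2 WT replicate 1, at -0.35 (limma adjusted p = 0.149). These statements rest on the brightest probe of each gene: other kept probes reached 1.05 for Kcnk3 in Foxo1 WT minus Esr1 WT, and 1.08 for Cpxm2, 1.08 for Cck and 1.99 for Masp1 in Foxa2 WT minus Esr1 WT.

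Differences between the wild-type groups were common. The F test over the 3 groups called 8421 of 17145 genes (49.1%), and 9316 without Foxa2 WT replicate 1 (54.3%). Of all genes, 4690 were within 2-fold and not called (27.4%), 1515 were within 2-fold and called (8.84%), 6906 were called and not within 2-fold (40.3%), and 4034 were neither (23.5%). The 3 group means spanned at least 1 unit for 4408 called genes (25.7%).

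By pair, Foxa2 WT minus Esr1 WT gave 6048 calls (35.3%), 4255 higher (24.8%) and 1793 lower (10.5%). Foxo1 WT minus Esr1 WT gave 6029 calls (35.2%), 4274 higher (24.9%) and 1755 lower (10.2%). Foxa2 WT minus Foxo1 WT gave 2832 calls (16.5%), 1373 higher (8.01%) and 1459 lower (8.51%). Without Foxa2 WT replicate 1, Foxa2 WT minus Esr1 WT gave 6859 (40%; 27.5% higher and 12.5% lower) and Foxo1 WT minus Esr1 WT 8122 (47.4%; 32.3% and 15%). In the same setting Foxa2 WT minus Foxo1 WT gave 2232 (13%; 6.82% and 6.19%). The first 2 comparisons share the Esr1 WT arrays and the last 2 the Foxo1 WT arrays, so the counts are not independent. The median of all genes was 0.18 for both comparisons with Esr1 WT and -0.07 for Foxa2 WT minus Foxo1 WT. Quantile normalization brought the share of higher calls to 47.7% for Foxa2 WT minus Esr1 WT and 53.6% for Foxo1 WT minus Esr1 WT, against 70.4% and 70.9% here.

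Higher calls against Esr1 WT gathered among the dimmest genes, and for Foxa2 WT minus Esr1 WT also among the brightest. Genes were split into 5 equal sets by their mean level over all 32 arrays. In the lowest set the median difference was 0.90 for Foxa2 WT minus Esr1 WT, with 41.1% of genes called higher, and 1.13 for Foxo1 WT minus Esr1 WT, with 48.3% called higher. The array's 30th percentile itself lay at a level of -6.45 to -6.36 on Esr1 WT arrays. It lay at -5.58 to -5.02 on Foxo1 WT arrays and at -5.99 to -4.75 on Foxa2 WT arrays. The part of this offset in the differences of dim genes was not tested. In the middle set the medians were -0.07 for Foxa2 WT and 0.01 for Foxo1 WT minus Esr1 WT. In the highest set they were 0.41 for Foxa2 WT, with 39.7% called higher, and 0.25 for Foxo1 WT, with 24.2% called higher. Over all genes 24.8% and 24.9% were called higher in these comparisons. Genes within 2-fold made up 1.81% of the lowest set and 58.6% of the second highest.

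Among the dim genes were 554 receptor genes of the nose and vomeronasal organ, a family picked after its values were seen, of which 552 lay in the lowest 2 sets. Foxa2 WT minus Esr1 WT called 141 of these higher (25.5%, beside 24.8% of all genes) and 108 lower (beside 10.5% of all genes). Foxo1 WT minus Esr1 WT called 125 higher (22.6%, beside 24.9%) and 115 lower (beside 10.2%). Foxa2 WT minus Foxo1 WT called 3 higher (0.542%, beside 8.01%) and 8 lower (beside 8.51%). Against the Esr1 line, higher calls were thus near the share over all genes and under that of the lowest set. Lower calls were more frequent than over all genes, and calls between the other lines were rarer. The part of the array batch in these calls cannot be told apart from the line.

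**Figure D2:**
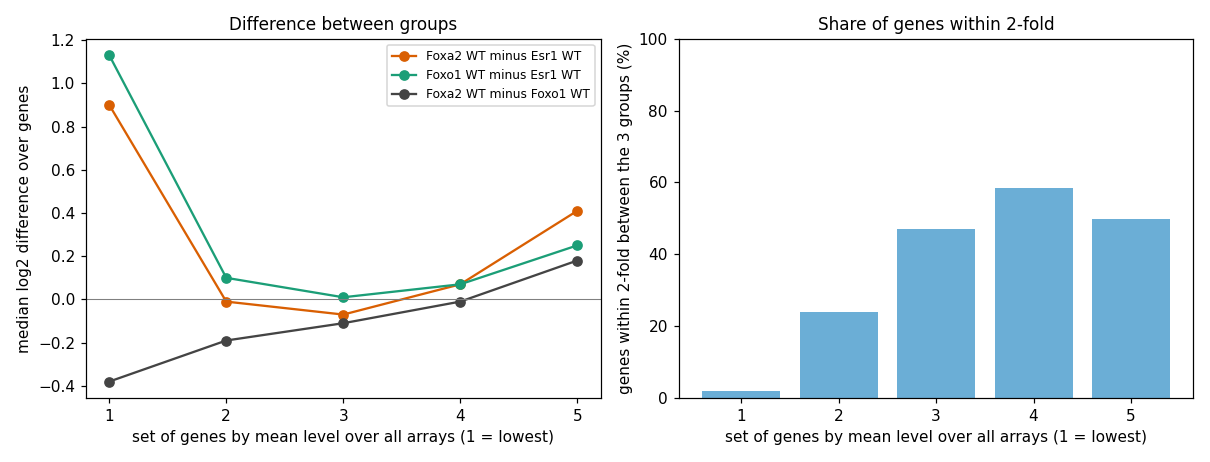
Median log2 difference between groups (left) and share of genes within 2-fold between the 3 groups (right, %), for 5 equal sets of genes ordered by mean level over all arrays. The lowest set has medians of 0.90 and 1.13 against Esr1 WT and 1.81% of genes within 2-fold.

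Many of the largest single differences set the Foxo1 line apart. Trim12a, a member of the TRIM5-like antiviral family, had levels of 1.18, 1.46, 1.10 and 1.47 in Foxa2 WT uteri, -4.52, -4.59, -5.67 and -6.04 in Foxo1 WT uteri and 1.14, 1.16, 1.05 and 0.85 in Esr1 WT uteri. All 4 Foxo1 WT arrays were low, and none overlapped either other group. Trim12a gave a Foxo1 WT minus Esr1 WT difference of -6.25 ± 0.35 (SE, limma adjusted p = 6.3e-13) and Foxa2 WT minus Foxo1 WT was 6.51 (limma adjusted p = 2.8e-13). A second Trim12a probe gave a smaller Foxo1 WT minus Esr1 WT difference of -2.66. Closely related Trim genes could share its signal, since probe sequences were not used here.

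Zfp874a, a zinc finger gene, had -0.82, -1.58, -2.07 and -1.65 in Foxa2 WT uteri, -7.55, -6.43, -6.36 and -7.97 in Foxo1 WT uteri and -1.46, -1.11, -1.64 and -1.70 in Esr1 WT uteri. On all 4 Foxo1 WT arrays it was under the array's 30th percentile, so only a bound holds there: it was at least 13.3-fold higher in Foxa2 WT uteri and at least 13.8-fold lower in Foxo1 WT than in Esr1 WT uteri. Kctd14 had -0.06, -0.75, -0.59 and -0.88 in Foxa2 WT uteri, -4.72, -4.82, -5.71 and -5.05 in Foxo1 WT uteri and -1.07, -0.99, -1.53 and -0.54 in Esr1 WT uteri. Trnp1, a nuclear protein known from neural progenitors, had 5.69, 3.51, 3.23 and 3.17 in Foxa2 WT uteri, -0.17, -0.02, -0.10 and -0.05 in Foxo1 WT uteri and 2.83, 3.35, 3.27 and 3.18 in Esr1 WT uteri. In each case the Foxo1 WT arrays were the low ones with no overlap. Foxa2 WT minus Foxo1 WT was 4.51 for Kctd14 and 3.99 for Trnp1.

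In 2 further genes 1 Foxo1 WT uterus broke from its group. Gcnt1, a glycosyltransferase that branches O-linked sugars, had 3.06, 1.95, 2.37 and 2.80 in Foxa2 WT uteri, 0.72, -4.12, -3.24 and -3.54 in Foxo1 WT uteri and 2.27, 2.44, 2.52 and 1.79 in Esr1 WT uteri. Cpn1, the catalytic subunit of carboxypeptidase N, had 0.68, 0.35, 1.40 and 0.04 in Foxa2 WT uteri, -0.07, -6.15, -5.50 and -5.23 in Foxo1 WT uteri and 1.11, 1.04, 0.65 and 0.55 in Esr1 WT uteri, against -7.69 to -6.56 in vehicle Esr1 WT uteri. Foxo1 WT replicate 1 thus lay near the other lines for both genes while the other 3 were low. The Foxo1 WT minus Esr1 WT difference was -4.80 for Gcnt1 and -5.07 for Cpn1 (limma adjusted p = 2.8e-07 and 5.7e-06). Probes disagreed in size: the 3 Gcnt1 probes ran from -4.80 to -0.22 and the 2 Cpn1 probes from -5.07 to -0.50. Khdc1a, an oocyte-expressed KH domain gene, was also low, with -2.92, -3.09, -2.67 and -3.22 in Foxo1 WT uteri against 1.70 to 3.31 in Esr1 WT uteri, but its second probe showed no such difference (0.43).

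Pigr, Cdh1 and Prom1, 3 genes of the epithelial surface, were low in Foxo1 WT uteri. Pigr, which carries antibodies across epithelium, had -0.63, 0.08, 0.12 and 0.02 in Foxa2 WT uteri, -3.81, -3.38, -3.43 and -2.76 in Foxo1 WT uteri and -0.43, -1.04, -0.91 and -1.44 in Esr1 WT uteri, against -8.27 to -6.87 after vehicle. Its Foxo1 WT arrays were between the other DES groups and vehicle, with no overlap with any of them. In Pigr, Foxo1 WT minus Esr1 WT was -2.39 and Foxa2 WT minus Foxo1 WT was 3.24 (limma adjusted p = 5.6e-06 and 1.9e-07). Cdh1, the epithelial cadherin, had 6.05, 3.51, 4.01 and 3.87 in Foxa2 WT uteri, 0.67, 0.72, 1.51 and 1.73 in Foxo1 WT uteri and 3.99, 4.11, 4.10 and 4.07 in Esr1 WT uteri. It has 10 kept probes, whose Foxo1 WT minus Esr1 WT differences all lay between -2.91 and -2.68. Prom1, an apical membrane protein, was lower in Foxo1 WT than in Foxa2 WT uteri by 3.10 and than in Esr1 WT uteri by 2.59. These 3 were not a list of their own, and Cldn4, a tight junction protein, ran the other way, with a Foxo1 WT minus Esr1 WT difference of 1.24 (limma adjusted p = 0.063) and a Foxa2 WT minus Foxo1 WT difference of -1.95 (limma adjusted p = 0.0099, and 0.057 without Foxa2 WT replicate 1). Over the 24 simple epithelial genes, 5 were called higher and 2 lower in Foxo1 WT minus Esr1 WT, with a median of -0.03, and 2 higher and 4 lower under quantile normalization, with a median of -0.08.

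Other genes were high in Foxo1 WT uteri alone. Gdpd3, a lysophospholipase D, had -3.79, -2.77, -3.12 and -3.57 in Foxa2 WT uteri, 0.74, 1.05, 0.98 and 0.92 in Foxo1 WT uteri and -3.44, -3.23, -3.80 and -3.63 in Esr1 WT uteri. Alox12e, an epidermal lipoxygenase, had -2.09, -0.80, -0.68 and -0.71 in Foxa2 WT uteri, 4.05, 4.13, 3.94 and 4.05 in Foxo1 WT uteri and -0.19, 1.79, -0.35 and -0.18 in Esr1 WT uteri. Ifi207, an interferon-inducible gene of the Ifi200 cluster, had -3.57, -2.58, -3.73 and -3.13 in Foxa2 WT uteri, 0.98, 1.14, 0.92 and 0.88 in Foxo1 WT uteri and -2.23, -2.17, -2.92 and -2.51 in Esr1 WT uteri. The Foxo1 WT arrays of each gene were close together and above every array of the other groups. Foxa2 WT minus Foxo1 WT was -4.24 for Gdpd3, -5.11 for Alox12e and -4.23 for Ifi207 (limma adjusted p = 2.0e-11, 2.0e-11 and 2.8e-13).

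G6pc2, a glucose-6-phosphatase known from pancreatic islets, had -8.58, -7.09, -6.84 and -7.57 in Foxa2 WT uteri, -1.09, -1.50, -1.43 and -1.80 in Foxo1 WT uteri and -6.47, -6.04, -6.43 and -5.99 in Esr1 WT uteri, against -0.11 to 0.41 after vehicle. It was at least 17.0-fold lower in Foxa2 WT than in Foxo1 WT uteri, and the Foxo1 WT arrays lay nearest to vehicle. Retnla, a marker of alternatively activated macrophages, had -5.14, -3.80, -5.78 and -5.94 in Foxa2 WT uteri, -1.46, -0.43, -1.28 and -0.04 in Foxo1 WT uteri and -7.88, -8.49, -8.28 and -8.30 in Esr1 WT uteri. It was at least 48.2-fold higher in Foxo1 WT than in Esr1 WT uteri. Tpsab1, a mast cell tryptase, was under the array's 30th percentile on all Foxa2 WT and Esr1 WT arrays, and was at least 13.9-fold higher in Foxo1 WT than in Esr1 WT uteri. Akr1c18, which inactivates progesterone, was higher in Foxo1 WT than in Esr1 WT uteri by 3.50. The list of 22 leukocyte genes had 5 called higher and 4 lower in Foxo1 WT minus Esr1 WT, which turned to 3 and 4 under quantile normalization, and its mean level per array was -1.99 to -1.42 in Foxa2 WT uteri, -2.03 to -1.80 in Foxo1 WT uteri and -2.19 to -1.69 in Esr1 WT uteri.

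**Figure D3:**
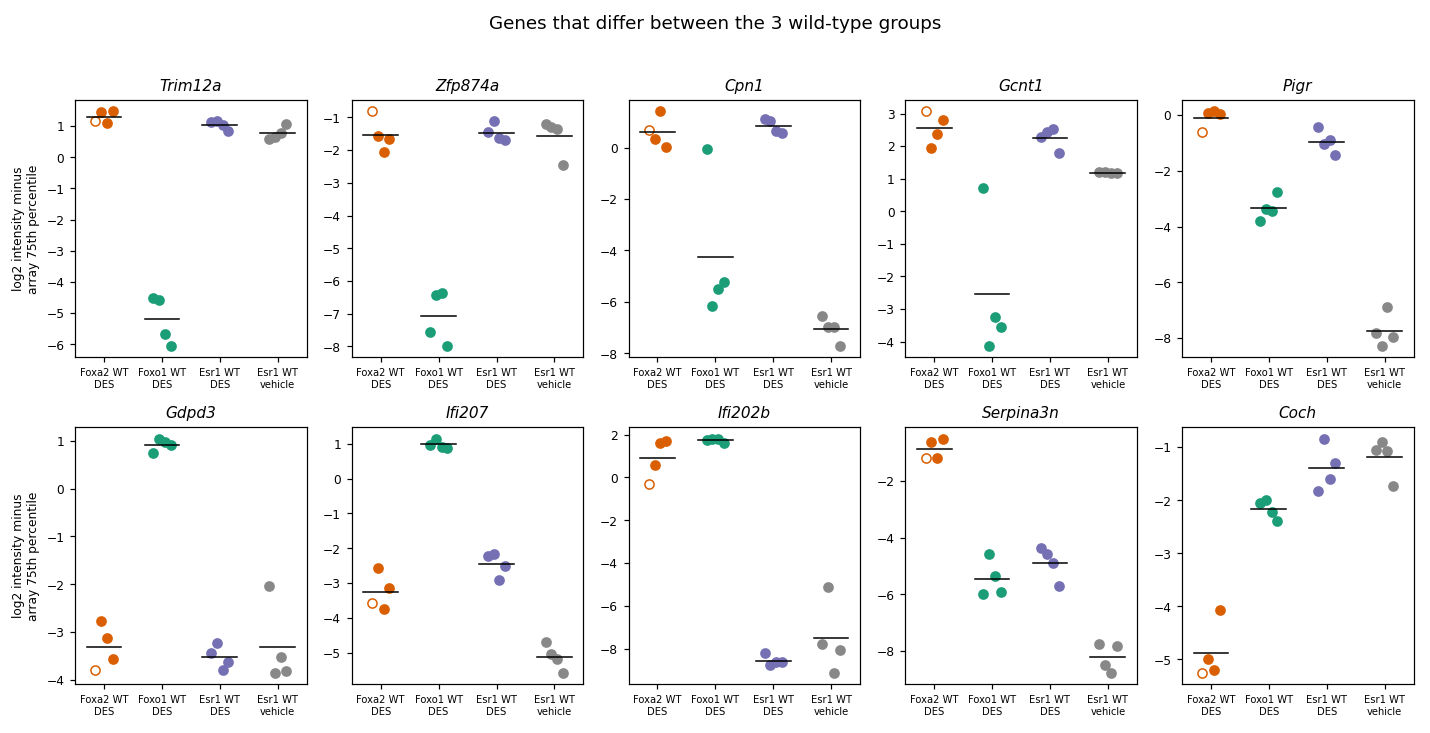
Level on each array (log2 intensity minus the array's 75th percentile) of 10 genes that differed between Foxa2 WT, Foxo1 WT and Esr1 WT uteri after DES, beside vehicle Esr1 WT; lines are means of 4 arrays and the open circle is Foxa2 WT replicate 1. Trim12a, Zfp874a, Pigr, Gdpd3 and Ifi207 set Foxo1 WT apart, Ifi202b sets Esr1 WT apart, Serpina3n and Coch set Foxa2 WT apart, and in Cpn1 and Gcnt1 1 Foxo1 WT array lies with the other groups.

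The knockout uteri of the same lines gave a comparison on separate arrays. Foxa2 cKO minus Foxo1 cKO after DES called 1136 of 17145 genes (6.63%), 555 higher (3.24%) and 581 lower (3.39%). These uteri lack the targeted gene as well, so deletion and line cannot be told apart in them. Of the 908 genes called higher in Foxa2 WT than in Foxo1 WT uteri both with and without Foxa2 WT replicate 1, 805 had the same sign in the cKO uteri (88.7%) and 350 were called the same way there (38.5%), while 10 were called the opposite way. Over all genes 38.7% had a positive sign in the cKO comparison. Of the 809 genes called lower, 742 had the same sign (91.7%) and 271 were called (33.5%), with 2 opposite, and over all genes 61.3% had a negative sign.

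The largest differences were called most often between the cKO uteri too, where a larger difference passes the threshold more easily. Of the 24 genes at least 3 units higher in Foxa2 WT uteri, 20 were called the same way between the cKO uteri, and of the 27 at least 3 units lower, 23 were. Trim12a differed by 5.66 between the cKO groups, Zfp874a by 5.02, Gcnt1 by 6.83, Gdpd3 by -3.98 and Alox12e by -4.05. Among the 3 surface genes named above, Cdh1 averaged 3.98 in Foxa2 cKO and 3.40 in Foxo1 cKO uteri, a difference of 0.59 that was not called (limma adjusted p = 0.45). The difference for Pigr was 0.88 and not called (limma adjusted p = 0.16), and that for Prom1 was 1.87 and called (limma adjusted p = 0.021). Whether the WT and cKO differences of a gene differ from each other was not tested.

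**Figure D4:**
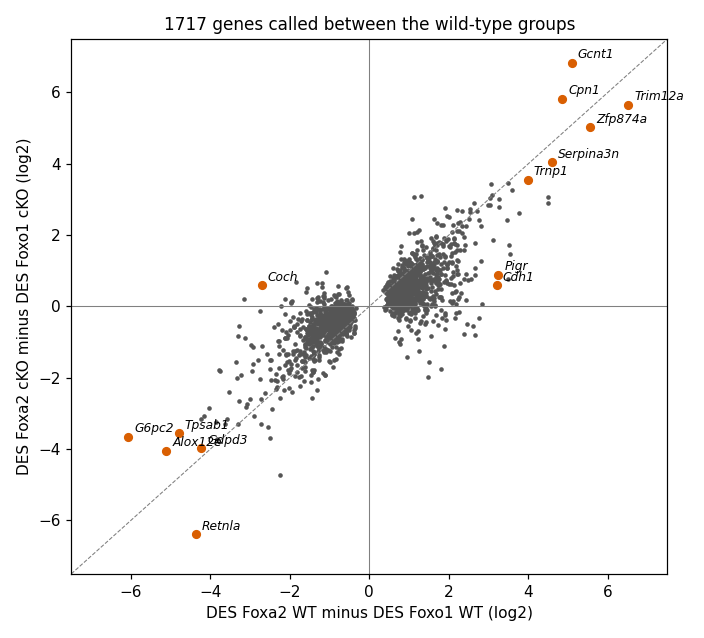
Foxa2 minus Foxo1 log2 difference in wild-type uteri (x axis) and in cKO uteri on separate arrays (y axis) after DES, for the 1717 genes called between the wild-type groups with and without Foxa2 WT replicate 1; the dashed line marks equal differences. Most points share a sign on both axes (805 of 908 and 742 of 809), and Cdh1 lies near 0 on the y axis.

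Other genes set the Esr1 line apart from both others. Ifi202b, another gene of the Ifi200 cluster, which binds DNA, had -0.30, 0.57, 1.63 and 1.71 in Foxa2 WT uteri, 1.77, 1.81, 1.81 and 1.63 in Foxo1 WT uteri and -8.22, -8.78, -8.60 and -8.62 in Esr1 WT uteri. All Esr1 WT arrays were under the array's 30th percentile, and the 4 vehicle arrays lay at -9.13 to -5.14. Ifi202b was at least 157-fold higher in Foxa2 WT and at least 284-fold higher in Foxo1 WT than in Esr1 WT uteri (limma adjusted p = 5.7e-07 and 5.7e-08). Hdgfl1 was at least 10.9-fold higher in Foxa2 WT and at least 13.3-fold higher in Foxo1 WT than in Esr1 WT uteri. Zfp735, a zinc finger gene, was at least 6.43-fold higher in Foxa2 WT and at least 9.31-fold higher in Foxo1 WT than in Esr1 WT uteri. Both of these genes were dim on every Esr1 WT array, so the sizes are bounds.

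Vsig2, a membrane protein of the immunoglobulin superfamily, ran the other way, with -2.04, -2.61, -2.81 and -1.96 in Foxa2 WT uteri, -4.07, -3.31, -3.33 and -3.50 in Foxo1 WT uteri and 0.35, 1.20, -1.20 and -0.13 in Esr1 WT uteri. The Esr1 WT arrays were the highest without overlap. The differences from Esr1 WT were -2.41 for Foxa2 WT and -3.61 for Foxo1 WT (limma adjusted p = 7.2e-06 and 6.3e-09). The other of its 2 kept probes gave -1.16 and -0.65, and for Foxa2 WT minus Foxo1 WT it gave -0.51 where the probe shown gave 1.20. Csta2, a cysteine protease inhibitor of the stefin family, had -1.65, -0.64, -1.20 and -1.48 in Esr1 WT uteri and was at or below -5.46 in all Foxo1 WT uteri, while Foxa2 WT uteri were split, with -4.00, -0.86, -5.39 and -5.86.

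Other genes set the Foxa2 line apart. Serpina3n, a secreted serine protease inhibitor of the acute phase, had -1.20, -0.61, -1.19 and -0.50 in Foxa2 WT uteri, -5.98, -4.59, -5.35 and -5.92 in Foxo1 WT uteri and -4.37, -4.59, -4.90 and -5.70 in Esr1 WT uteri. All 4 Foxa2 WT arrays were high, and the other groups overlapped each other. Foxa2 WT minus Esr1 WT was 4.02 ± 0.57 (SE, limma adjusted p = 5.9e-06) and Foxa2 WT minus Foxo1 WT was 4.58. Foxa2 cKO minus Foxo1 cKO was 4.04. Coch, an extracellular matrix protein, had -5.25, -4.99, -5.19 and -4.07 in Foxa2 WT uteri, -2.06, -2.00, -2.22 and -2.39 in Foxo1 WT uteri and -1.83, -0.84, -1.60 and -1.30 in Esr1 WT uteri. Foxa2 WT was the low group for Coch, at -3.48 against Esr1 WT and -2.71 against Foxo1 WT, while the cKO groups differed by 0.59 (limma adjusted p = 0.41). The second Coch probe gave -1.60 against Esr1 WT and -1.74 against Foxo1 WT. Itih4, a hyaluronan-associated serum protein, was lower in Foxa2 WT than in Esr1 WT uteri by 3.33, and by 2.33 without replicate 1. Wfdc18, a whey acidic protein family member, was higher in Foxa2 WT than in Esr1 WT uteri by 3.06 and than in Foxo1 WT uteri by 1.61.

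Gene lists show where differences gathered. Each list is read beside the shares over all genes, 24.8% higher and 10.5% lower for Foxa2 WT minus Esr1 WT, 24.9% and 10.2% for Foxo1 WT minus Esr1 WT, and 8.01% and 8.51% for Foxa2 WT minus Foxo1 WT. Medians over a list are beside 0.18, 0.18 and -0.07 over all genes.

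**Figure D5:**
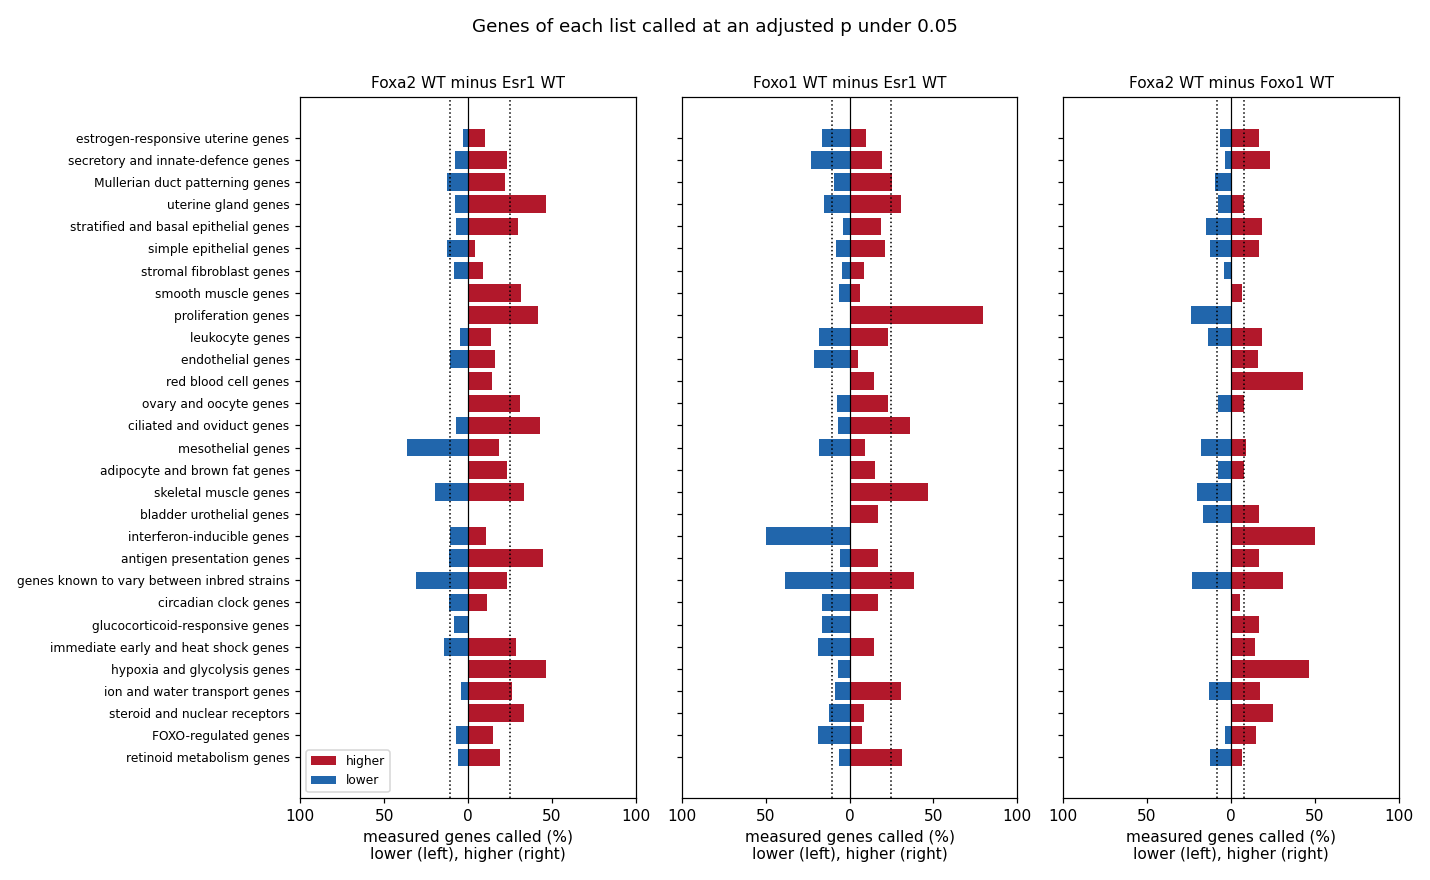
Share of the measured genes of each list called higher (right of 0) or lower (left of 0) in each comparison, in percent; dotted lines are the shares over all genes. Interferon-inducible genes have 14 of 28 called lower in Foxo1 WT minus Esr1 WT and 14 higher in Foxa2 WT minus Foxo1 WT, and proliferation genes have 23 of 29 called higher in Foxo1 WT minus Esr1 WT.

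Interferon-inducible genes were lower in the Foxo1 line. Type I interferons switch on antiviral genes through the interferon-stimulated response element, a DNA site bound by STAT and IRF factors. Of 28 measured genes, 14 were called lower and 0 higher in Foxo1 WT minus Esr1 WT, with a median of -0.63, by limma, and 14 were called higher and 0 lower in Foxa2 WT minus Foxo1 WT, with a median of 0.82. In Foxa2 WT minus Esr1 WT 3 were called each way, with a median of 0.27. The counts were 14 lower and 15 higher without Foxa2 WT replicate 1, and the directions held under quantile normalization (medians -0.79 and 0.86) and median scaling (-0.82 and 0.91). The mean level of the list per array was -0.43 to 0.09 in Foxa2 WT uteri, -1.16 to -0.97 in Foxo1 WT uteri and -0.70 to 0.10 in Esr1 WT uteri. Between the cKO groups 6 were called higher and 4 lower, with a median of 0.48. Ifi207, described above, was high in Foxo1 WT uteri and ran the other way.

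The RefSeq promoters of 3 of these genes are shown because the genes were low in Foxo1 WT uteri and their promoters hold a match to the response element. The motif, GAAA followed after any 2 bases by GAAA, was read on both strands and is marked in capitals, and the 3 matches in Isg15 overlap one another. Isg15 and Rsad2 were picked after their values were seen.
Ifit3: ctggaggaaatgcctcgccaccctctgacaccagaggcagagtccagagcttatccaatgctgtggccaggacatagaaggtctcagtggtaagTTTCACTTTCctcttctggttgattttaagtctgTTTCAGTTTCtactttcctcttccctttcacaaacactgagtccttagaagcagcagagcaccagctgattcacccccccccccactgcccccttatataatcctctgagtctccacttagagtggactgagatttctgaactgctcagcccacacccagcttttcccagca
Isg15: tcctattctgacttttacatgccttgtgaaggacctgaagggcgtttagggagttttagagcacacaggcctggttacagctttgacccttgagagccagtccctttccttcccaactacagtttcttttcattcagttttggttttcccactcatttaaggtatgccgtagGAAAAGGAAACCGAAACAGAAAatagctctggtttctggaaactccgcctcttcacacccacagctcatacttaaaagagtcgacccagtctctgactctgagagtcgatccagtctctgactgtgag
Rsad2: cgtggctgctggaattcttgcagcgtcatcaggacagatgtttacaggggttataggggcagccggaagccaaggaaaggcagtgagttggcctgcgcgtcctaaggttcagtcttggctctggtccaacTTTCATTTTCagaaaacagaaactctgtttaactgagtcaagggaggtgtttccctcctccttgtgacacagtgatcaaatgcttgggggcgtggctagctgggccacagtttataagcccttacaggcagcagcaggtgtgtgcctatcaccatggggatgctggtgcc
The windows are chr19:34583279-34583578 on the plus strand for Ifit3, chr4:156200769-156201068 on the minus strand for Isg15 and chr12:26456403-26456702 on the minus strand for Rsad2, each from 250 bases before to 50 bases after the start on GRCm38.p6. The motif was in 7 of the 9 promoters found for the 14 genes called lower in Foxo1 WT minus Esr1 WT (77.8%), in 8 of 11 for the other 14 genes of the list (72.7%) and in 533 of 13751 promoters of measured genes (3.88%). Genes with and without a call thus held it at similar shares.

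Ifit3, an antiviral RNA-binding protein, had -2.35, -2.13, -1.48 and -1.27 in Foxa2 WT uteri, -2.33, -2.83, -2.83 and -3.01 in Foxo1 WT uteri and 0.22, 0.08, -0.79 and -0.37 in Esr1 WT uteri. Esr1 WT was the high group for Ifit3, and the other groups overlapped. Isg15, a ubiquitin-like modifier, had -0.80, -0.59, -0.12 and 0.53 in Foxa2 WT uteri, -1.17, -1.24, -1.14 and -1.01 in Foxo1 WT uteri and 0.77, -0.52, -0.22 and -0.74 in Esr1 WT uteri. Rsad2, the antiviral enzyme viperin, had -1.16, -0.85, -0.75 and -0.93 in Foxa2 WT uteri, -2.80, -2.65, -2.42 and -2.22 in Foxo1 WT uteri and -1.05, -1.57, -1.23 and -1.59 in Esr1 WT uteri. For Isg15 and Rsad2 all 4 Foxo1 WT arrays were below the others. Foxo1 WT minus Esr1 WT was -2.54 for Ifit3, -0.96 for Isg15 and -1.17 for Rsad2 (limma adjusted p = 2.4e-07, 0.0054 and 5.6e-04). Oasl2, of the oligoadenylate synthetase family, was 2.15 higher in Foxa2 WT than in Foxo1 WT uteri and Zbp1, a sensor of left-handed nucleic acid, 1.81 higher. The 18 antigen presentation genes had 8 higher and 2 lower in Foxa2 WT minus Esr1 WT, which became 5 and 1 without Foxa2 WT replicate 1 and 2 and 3 under quantile normalization.

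Proliferation genes were higher in the Foxo1 line. These encode the replication and mitosis machinery. Of 29 measured genes, 23 were called higher and 0 lower in Foxo1 WT minus Esr1 WT, with a median of 0.98. In Foxa2 WT minus Esr1 WT 12 were higher and 0 lower, with a median of 0.39, and in Foxa2 WT minus Foxo1 WT 0 were higher and 7 lower, with a median of -0.48. Without Foxa2 WT replicate 1 these counts were 27 and 0, 8 and 0, and 0 and 15. The directions held under quantile normalization and median scaling (medians 0.93 and 0.79 for Foxo1 WT minus Esr1 WT). Mcm3, a subunit of the replicative helicase, had 5.65, 3.07, 3.73 and 3.04 in Foxa2 WT uteri, 4.05, 3.88, 4.50 and 4.29 in Foxo1 WT uteri and 2.60, 1.74, 2.99 and 2.39 in Esr1 WT uteri. Plk1, a mitotic kinase, had 4.54, 2.45, 3.48 and 3.59 in Foxa2 WT uteri, 3.86, 4.03, 3.95 and 3.85 in Foxo1 WT uteri and 2.46, 1.50, 2.71 and 2.36 in Esr1 WT uteri. Foxo1 WT uteri were tight and all above Esr1 WT for both genes, while Foxa2 WT uteri spread widely. The difference of Foxo1 WT from Esr1 WT was 1.75 for Mcm3, 1.66 for Plk1 and 1.60 for Cdc20, an activator of the anaphase-promoting complex. Between the cKO groups 0 of the 29 genes were called, with a median of -0.37.

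Some hypoxia and glycolysis genes were higher in the Foxa2 line. Of 15 measured genes, 7 were called higher and 0 lower both in Foxa2 WT minus Esr1 WT and in Foxa2 WT minus Foxo1 WT, with medians of 0.69 and 0.87. Without replicate 1, 6 were higher and 1 lower against Esr1 WT and 5 and 0 against Foxo1 WT. Medians stayed positive under quantile normalization (0.58 and 0.78) and median scaling (0.59 and 0.96). The mean level of the list per array was 2.16 to 3.72 in Foxa2 WT and 1.79 to 2.25 in Esr1 WT uteri, which overlap. In Foxo1 WT uteri it was 1.73 to 1.93. Among all genes of the highest set by level, 39.7% were called higher in Foxa2 WT minus Esr1 WT and 10.9% in Foxa2 WT minus Foxo1 WT. In the second highest set these shares were 17.1% and 10.7%. Hk2, a hexokinase, had 6.01, 3.50, 3.68 and 3.94 in Foxa2 WT uteri, 2.50, 2.31, 2.46 and 2.64 in Foxo1 WT uteri and 2.79, 2.42, 3.23 and 2.75 in Esr1 WT uteri. Ankrd37, a hypoxia-induced ankyrin protein, had 4.02, 2.70, 2.33 and 3.30 in Foxa2 WT uteri, 1.43, 1.07, 0.53 and 1.34 in Foxo1 WT uteri and 1.33, 0.71, 1.98 and 1.70 in Esr1 WT uteri. For both, every Foxa2 WT array was above every array of the other groups. Egln3, an oxygen-sensing hydroxylase, lost its call without replicate 1 (F test adjusted p = 0.09, limma). Of 7 red blood cell genes 3 were higher in Foxa2 WT than in Foxo1 WT uteri, with a median of 1.36; Hbb-bt, a beta globin, was 1.37 higher. Between the cKO groups 1 of the 15 hypoxia and glycolysis genes was called higher and 0 lower, with a median of 0.44. Whether blood content moved with other genes was not tested.

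Stromal genes were the most even list of those read. Of 23 measured stromal fibroblast genes 16 were within 2-fold and 4 were called by the F test, and without Foxa2 WT replicate 1 these counts were 21 and 7. The mean level per array was 3.82 to 4.01 in Foxa2 WT uteri, 3.89 to 4.08 in Foxo1 WT uteri and 3.80 to 3.92 in Esr1 WT uteri. Dpt, the matrix protein dermatopontin, was called by the F test (adjusted p = 0.009, limma) and yet within 2-fold. Twist1, a mesenchymal transcription factor, was lower in Foxo1 WT than in Esr1 WT uteri by 0.70. Simple epithelial genes were within 2-fold in 13 of 24 and smooth muscle genes in 8 of 16. In Foxa2 WT minus Esr1 WT 5 smooth muscle genes were called higher and 0 lower, 1 and 0 under quantile normalization, among them Pcp4, a calmodulin regulator, by 1.62. Of 19 endothelial genes 9 were within 2-fold, and Kdr, a VEGF receptor, was 4.09 on Foxa2 WT replicate 1 and 1.23 to 1.53 on Foxa2 WT replicates 2 to 4.

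Estrogen-responsive uterine genes, read as a list, were mixed. Of 30 measured genes 12 were within 2-fold and 11 were called by the F test, with medians of 0.01, -0.15 and 0.16 in Foxa2 WT minus Esr1 WT, Foxo1 WT minus Esr1 WT and Foxa2 WT minus Foxo1 WT. The first of these medians was -0.28 under quantile normalization. Pgr, the progesterone receptor, picked after its values were seen, was 0.51 lower in Foxo1 WT than in Esr1 WT uteri and within 2-fold. Igf1, a growth factor made by the estrogen-stimulated uterus, had 3.78, 3.18, 2.44 and 2.98 in Foxa2 WT uteri, 1.12, 1.17, 1.19 and 1.35 in Foxo1 WT uteri and 1.54, 1.68, 2.09 and 2.44 in Esr1 WT uteri. Foxa2 WT was the high group and Foxo1 WT the low group, and the ranges of Foxa2 WT and Esr1 WT met at 2.44. Foxa2 WT minus Esr1 WT was 1.16 and Foxo1 WT minus Esr1 WT was -0.73 (limma adjusted p = 1.0e-04 and 0.0064). Its 11 kept probes ran from -0.29 to 1.22 for Foxa2 WT minus Esr1 WT and from -1.73 to -0.59 for Foxo1 WT minus Esr1 WT. Among 26 secretory and innate-defence genes 4 were within 2-fold. Lcn2, an iron-siderophore binding protein, had 6.24, 2.92, 3.97 and 3.15 in Foxa2 WT uteri, 2.42, 2.83, 2.70 and 2.64 in Foxo1 WT uteri and 5.07, 4.88, 4.30 and 4.34 in Esr1 WT uteri, so all DES arrays were far above vehicle (-6.74 to -5.87) and yet Foxo1 WT was 2.00 below Esr1 WT (limma adjusted p = 0.0013).

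Patterning and differentiation genes differed singly. WNT7A is a signal of the Mullerian epithelium that DES is known to repress. Wnt7a had -5.17, -4.02, -3.50 and -4.04 in Foxa2 WT uteri, -1.01, -0.78, -0.78 and -1.06 in Foxo1 WT uteri and -2.04, -1.87, -3.24 and -2.95 in Esr1 WT uteri, against 1.14 to 1.31 after vehicle. The 3 groups formed 3 separate steps, all below vehicle. Foxa2 WT minus Foxo1 WT was -3.27, Foxa2 WT minus Esr1 WT -1.66 and Foxo1 WT minus Esr1 WT 1.62 (limma adjusted p = 1.1e-08, 1.5e-04 and 1.3e-04), and the cKO groups differed by -0.54 (limma adjusted p = 0.36). Of the 32 Mullerian duct patterning genes 13 were called by the F test and 7 were within 2-fold. Hoxa13, a posterior Hox gene, was higher than in Esr1 WT uteri by 1.35 in Foxa2 WT and by 1.97 in Foxo1 WT uteri. Ihh, a hedgehog ligand, was higher by 1.27 in Foxa2 WT and by 2.51 in Foxo1 WT uteri on its brightest probe, but its 11 kept probes ran from -0.85 to 1.27 and from -0.85 to 2.51, so its direction depends on the probe.

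Ovol1, a transcription factor of stratifying epithelium, had -0.34, -2.02, -2.88 and -0.99 in Foxa2 WT uteri, -3.42, -3.63, -3.57 and -3.85 in Foxo1 WT uteri and -5.82, -7.23, -5.98 and -5.16 in Esr1 WT uteri. The groups were again separate, with Foxa2 WT highest. Foxa2 WT minus Esr1 WT was 4.49 and Foxo1 WT minus Esr1 WT was 2.43 (limma adjusted p = 7.0e-09 and 2.2e-05), and its second probe gave 2.03 and 0.13. Of the 27 stratified and basal epithelial genes 8 were called higher and 2 lower in Foxa2 WT minus Esr1 WT, and 6 and 4 under quantile normalization. Of 13 uterine gland genes 6 were higher and 1 lower in that comparison, and 0 were within 2-fold.

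Retinoid, ion transport and receptor genes were read next. Lrat, which stores vitamin A as its ester, had 1.30, -0.07, 0.66 and 0.41 in Foxa2 WT uteri, -1.32, -1.69, -1.41 and -1.29 in Foxo1 WT uteri and 0.67, 0.09, 0.35 and 0.34 in Esr1 WT uteri. Aldh1a3, which makes retinoic acid, had -2.77, -2.13, -2.52 and -2.56 in Foxa2 WT uteri, -1.10, -0.66, -0.70 and -1.26 in Foxo1 WT uteri and -3.28, -2.10, -3.27 and -2.50 in Esr1 WT uteri. Foxo1 WT was the low group for Lrat and the high group for Aldh1a3, without overlap. Between Foxo1 WT and Esr1 WT uteri the difference was -1.79 for Lrat and 1.86 for Aldh1a3 (limma adjusted p = 5.8e-05 and 3.8e-07), and other kept probes gave -0.78 for Lrat and 1.07 for Aldh1a3. Over the 16 retinoid metabolism genes 5 were higher and 1 lower in that comparison, and 3 and 3 under quantile normalization. Of 23 ion and water transport genes 7 were higher and 2 lower, and 6 and 6 under quantile normalization. Aqp5, a water channel, was 0.96 higher in Foxa2 WT than in Esr1 WT uteri, and 0.49 without replicate 1 (limma adjusted p = 0.15). Of 24 steroid and nuclear receptors 8 were higher and 0 lower in Foxa2 WT minus Esr1 WT by limma, and 6 and 0 under quantile normalization, while Foxo1 WT minus Esr1 WT had 2 higher and 3 lower. Of 27 FOXO-regulated genes 2 were higher and 5 lower in Foxo1 WT minus Esr1 WT, with a median of -0.07. These counts were 2 and 9 under quantile normalization (median -0.49) and 4 and 3 with the mean of probes (median 0.12).

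Markers of tissues that could cling to a dissected uterus were read in the same way. Ovary and oocyte genes lay at a mean level per array of -5.01 to -3.13 in Foxa2 WT uteri, -3.86 to -3.55 in Foxo1 WT uteri and -4.56 to -4.17 in Esr1 WT uteri. Skeletal muscle genes lay at -4.32 to -2.58 in Foxa2 WT uteri, -2.89 to -2.67 in Foxo1 WT uteri and -4.14 to -3.67 in Esr1 WT uteri. In Foxo1 WT minus Esr1 WT 7 of 15 were higher and 0 lower, and 7 and 2 under quantile normalization. Dim genes as a whole had 48.3% called higher there in the lowest set by level and 22.2% in the second lowest. In Foxo1 WT minus Esr1 WT 5 of 14 ciliated and oviduct genes were higher and 1 lower, and 2 of 13 adipocyte and brown fat genes were higher. Of 11 mesothelial genes 1 was higher and 2 were lower, and of 6 bladder urothelial genes 1 was higher. Their part in the other differences was not tested. Among leukocyte genes, Itgam, an integrin of myeloid cells, had 3.55, 0.13, 0.60 and -0.28 in Foxa2 WT uteri, -0.34, -0.39, -0.93 and -0.88 in Foxo1 WT uteri and 2.11, 2.17, 2.07 and 1.96 in Esr1 WT uteri, against -4.60 to -4.19 after vehicle. For Itgam the Foxo1 WT minus Esr1 WT difference was -2.71 (limma adjusted p = 4.0e-05).

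Lists that mark strain background or handling were read beside the 49.1% of all genes called by the F test and the 36.2% within 2-fold. Of a list of 29 genes known to vary between inbred mouse strains, 13 were measured and 12 were called by the F test. In Foxo1 WT minus Esr1 WT 5 of the list were called higher and 5 lower. The list was chosen with earlier results of these data known and holds Ifi202b and Trim12a, so its share is a description. The mice carry 1 strain label, and the origin of each line's alleles is not given in the sources used here. Of 18 circadian clock genes 8 were within 2-fold and 9 called, of 12 glucocorticoid-responsive genes 6 and 3, and of 21 immediate early and heat shock genes 5 and 12. Genes next to the targeted loci were read because a line can carry a stretch of chromosome along with its allele. Among up to 30 measured genes on each side, called at least 2-fold both with and without Foxa2 WT replicate 1, Foxa2 WT minus Foxo1 WT had 1 of 60 near Foxa2 (1.67%) and 2 of 60 near Foxo1 (3.33%), beside 5.29% and 5.28% of all other genes. Near Esr1 that comparison had 4 of 36 (11.1%), beside 5.26%. Foxa2 WT minus Esr1 WT had 4 of 36 near Esr1 (11.1%) and 8 of 60 near Foxa2 (13.3%), beside 14.8%. Foxo1 WT minus Esr1 WT had 8 of 36 near Esr1 (22.2%) and 10 of 60 near Foxo1 (16.7%), beside 18.3% of all other genes.

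Some genes varied widely between uteri of 1 group. Fabp1, a fatty acid binding protein of liver and gut, had -6.52, -4.41, -6.83 and -5.88 in Foxa2 WT uteri, -4.12, -4.34, -4.55 and -5.64 in Foxo1 WT uteri and -1.45, -8.66, -7.59 and -8.20 in Esr1 WT uteri. Apoa4, an intestinal apolipoprotein, had -6.28, -4.54, -6.78 and -6.04 in Foxa2 WT uteri, -4.82, -4.72, -5.94 and -5.21 in Foxo1 WT uteri and -1.81, -6.93, -8.59 and -7.41 in Esr1 WT uteri. Esr1 WT replicate 1 was the high array for both genes. Fbxw21, an F-box gene known from oocytes, had -5.14 to -3.40 in Foxa2 WT uteri, -4.09, 1.86, -4.11 and -4.64 in Foxo1 WT uteri and -4.45 to -4.17 in Esr1 WT uteri, and Foxo1 WT replicate 2 was the high array. None of these 3 genes was called by the F test (adjusted p = 0.48, 0.64 and 0.12, limma). They were named for a large spread within groups, which itself makes a call less likely.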

How the data were processed

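Total RNA from each uterus was hybridised to a single-colour Agilent array. The authors deposited 1 linear intensity per probe and array. The submitters' processing notes name Agilent Feature Extraction 12. How the authors corrected background or normalized is not given in the sources consulted. The log2 of each intensity was taken and each array's 75th percentile subtracted. Probes above their array's 30th percentile on at least 4 of the 32 arrays were kept. Of 45018 probes, 33653 had 1 gene symbol, 56 several and 11309 none in the platform annotation, and 33517 were matched to RefSeq by gene ID. The brightest kept probe on average stood for each gene, which gave 17145 genes.

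All 8 groups of 4 arrays were fitted together in limma 3.58.1 (R 4.3.3), with 24 residual degrees of freedom, moderated t and F tests and Benjamini-Hochberg adjustment. A level under the 30th percentile on all 4 arrays of a group counted as dim, and folds against it are lower bounds. The code was tested on simulated data. Where nothing says that samples came from separate litters, p-values measure the spread between these uteri.

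The groups, genes and lists were chosen with earlier results of these data known. Genes were named by rule: up to 8 per comparison and direction with the largest change among called genes whose arrays do not overlap, up to 3 called genes per list by range of group means, up to 10 stable genes per direction of DES change, and up to 8 genes with the largest spread within groups. Unnamed gene models were skipped. Xist and the targeted genes were read as checks of the arrays, and other genes are marked as chosen after their values were seen. Alternatives were 16 added before log2, quantile normalization, median scaling, array weights, other probe rules and filters, stricter thresholds, the compared groups alone, a replicate block, each array left out in turn, and the array sets, of which the last and the joint omissions were added after seeing the data. Promoters came from RefSeq GRCm38.p6, and figures were drawn with matplotlib 3.10.9.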

Additional observations from a re-analysis of the deposited data

Results flagged for a closer look

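With 4 arrays in a group, an array was marked when its gap to the nearest other array took up more of the group's range than the critical value of Dixon's test. Over 77 genes in 3 groups, 231 such readings were made and 16 were marked, 10 of them for Foxa2 WT replicate 1. Chance marks about 1 in 20 groups. The marked genes Fabp1 and Fbxw21 were named for a large spread within groups, so their marks are not independent of that choice.

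On Foxa2 WT replicate 1 the 75th percentile of intensity was 9024, against 757 to 1112 on the other 3 arrays (gap over range 0.957). Esr1 was 5.00 there against 2.02 to 2.25 (0.921), Foxo1 4.93 against 3.60 to 3.78 (0.866) and Sftpd 6.13 against 5.27 to 5.37 (0.878). Trnp1 was 5.69 against 3.17 to 3.51 (0.864) and Kdr 4.09 against 1.23 to 1.53 (0.895). Lower on that array were Cpxm2, at -2.41 against -1.06 to -0.86 (0.872), Cck, at -4.36 against -3.67 to -3.58 (0.879), and Masp1, at -2.36 against -1.79 to -1.68 (0.847). Pigr was -0.63 against 0.02 to 0.12 (0.866) and Alox12e -2.09 against -0.80 to -0.68 (0.911).

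Among Foxo1 WT uteri, Cpn1 was -0.07 on replicate 1 against -6.15 to -5.23 on the others (0.849), and Cldn4, a tight junction protein, was -0.87 on replicate 4 against -0.62 to -0.58 (0.871). Fbxw21 was 1.86 on replicate 2 of that group against -4.64 to -4.09 (0.915). Among Esr1 WT uteri, Alox12e was 1.79 on replicate 2 against -0.35 to -0.18 (0.920). Fabp1 was -1.45 on replicate 1 against -8.66 to -7.59 (0.851). Tcf21, a mesenchymal transcription factor, was 2.04 on replicate 1 against 2.26 to 2.30 (0.835).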

How the results depend on the processing

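Counts of calls are given for Foxa2 WT minus Esr1 WT (6048), Foxo1 WT minus Esr1 WT (6029), Foxa2 WT minus Foxo1 WT (2832), the F test (8421), genes within 2-fold (6205), DES minus vehicle in Esr1 WT (8876) and Foxa2 cKO minus Foxo1 cKO (1136). Leaving out each array in turn gave 4942 to 6859, 5003 to 8122, 1808 to 5337, 7269 to 9600, 5451 to 8139, 8060 to 10579 and 814 to 2009 in that order. Foxa2 WT minus Foxo1 WT was 5337 without Foxa2 WT replicate 2, 1808 without Foxo1 WT replicate 1 and 1884 without Foxo1 WT replicate 2, and the cKO count was 2009 without Foxa2 WT replicate 1. Array weights gave 10012, 10412, 8398, 13509 and 9388 for the first 5 and 2854 for cKO. At an adjusted p under 0.01 the counts were 3589, 3931, 1304, 5321 (F test) and 679 (cKO), and at least 2-fold they were 2807, 3142, 1187, 4404, 5353 (DES minus vehicle) and 601 (cKO). With only the compared groups in the fit, Foxa2 WT minus Foxo1 WT was 1183 and the F test 5546. Without Foxa2 WT replicate 1 and vehicle Esr1 WT replicate 4, whose Xist level was low, Foxo1 WT minus Esr1 WT was 9543 and cKO 3016, and with the 11 DES wild-type arrays left without Foxa2 WT replicate 1 alone in the fit, Foxo1 WT minus Esr1 WT was 9262. With array set as a block, Foxa2 WT minus Foxo1 WT was 1758 (cKO 874), and 2875 (cKO 2721) without Foxa2 WT replicate 1. Within replicates 1 and 2 it was 30 (cKO 0), and within replicates 3 and 4 it was 1262 (cKO 1090). The cause was not tested in these cases, and the sets hold fewer arrays. The main fit shares 1 estimate of the spread per gene over all 8 groups, so an omitted array can also change counts of comparisons that do not hold it. Without Foxa2 WT replicate 1, Foxo1 WT minus Esr1 WT went from 6029 to 8122 calls, while its median over all genes stayed at 0.178. A replicate block gave 6024, 6051, 2863, 8415, 6217, 8956 and 1142. Deviations of same-numbered arrays correlated at -0.07 to 0.37, which cannot show whether the numbers pair the uteri. The block changed no call count by over 1.5 times.

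The share of higher calls was 70.4%, 70.9% and 48.5% in the 3 wild-type comparisons, 41.5% for DES minus vehicle and 48.9% for cKO. Under quantile normalization it was 47.7%, 53.6%, 43.1%, 47.2% and 62.2%, and under median scaling 57.4%, 53.5%, 57.7%, 56.8% and 73.9%. The majority direction of calls thus turned for Foxa2 WT minus Esr1 WT and cKO under quantile normalization. Under median scaling it turned for Foxa2 WT minus Foxo1 WT, DES minus vehicle and cKO. Single genes were followed through the alternatives only for the 3 targeted genes and the genes named for a pairwise comparison. Of these results, 1501 kept their side of the threshold, 35 gained and 15 lost it. No difference called in the main fit or in the alternative changed sign, and sign changes of uncalled differences were not counted. Within replicates 1 and 2 alone, the Foxa2 WT minus Foxo1 WT calls of Gcnt1, Cpn1, Serpina3n, Kctd14, Trnp1, G6pc2, Tpsab1, Retnla and Akr1c18 were among those lost. Dim genes limit the comparisons with Esr1 WT.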
